A study of Mus musculus with 14 samples.

Results

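The Dlk1-Dio3 imprinted region of mouse chromosome 12 holds a large cluster of microRNA genes, and the members described here are the main-strand TaqMan assays named for those microRNAs. Of 38 listed microRNAs, 36 had an assay on the card, among 375 microRNA assays in all. The 36 assays cover 31 hairpins, and for 5 hairpins (miR-337, miR-369, miR-380, miR-409 and miR-434) both arms were measured. Listed but without an assay of their own were miR-300 and miR-541. The card prefixes mouse assays with mmu (mmu-miR-127, mmu-miR-136, mmu-miR-370, mmu-miR-379, mmu-miR-410 and so on), a prefix dropped from here on. The levels were measured in mouse heart transplants on 14 arrays, each holding RNA of 3 pooled animals (100 ng each, 300 ng in all), from mice 8 to 10 weeks old. Syngeneic grafts were hearts of C57BL/6 mice placed heterotopically in C57BL/6 recipients. The allogeneic hearts, called rejected in the labels, came from BALB/c donors and went into C57BL/6 recipients, so the strain of the heart differs together with the group. Whole hearts were taken on day 7 (3 syngeneic and 3 allogeneic arrays) and cells recovered from grafts, labelled graft-infiltrating lymphocytes (GIL), on day 5 (3 and 3 arrays). There was 1 array of normal BALB/c hearts and 1 of normal C57BL/6 peripheral blood mononuclear cells (PBMC). No drug treatment is given for any of these groups.

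The protein-coding genes of the region, Dlk1, Rtl1 and Dio3, are expressed from the paternal chromosome, whereas the long noncoding RNAs Meg3, Rian and Mirg and the microRNAs are expressed from the maternal one. The microRNAs are cut from these long maternal transcripts as hairpins, and each mature strand pairs with target RNAs mainly through its seed near the 5′ end. As a class they are abundant in the embryo, placenta and brain and low in most other adult tissues. Those that lie antisense to Rtl1 match the Rtl1 transcript perfectly and direct its cleavage.

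The listed hairpins span 158 kb on the plus strand, at chr12:109585789-109743795 (GRCm38.p6). They fall into 2 position groups. The Rtl1 antisense group (9 assays) runs from miR-337 to miR-136 within the Rtl1 locus and includes the nearby miR-370 (chr12:109618258-109618336) within Rian. The miR-379 to miR-410 group (27 assays) begins 90.7 kb further on with miR-379 (chr12:109709060-109709125) and ends with miR-410 (chr12:109743715-109743795) within Mirg. RefSeq held a mature sequence for 34 of the 36 assays. The sequences shown include those of miR-370, miR-382 and miR-409-3p, which had the largest called differences in GIL, and of the pair that passed the test in hearts. Both arms of miR-434, similar pairs whose values are set side by side further on, and miR-127 and miR-410 are shown as well. Capitals mark the seed, bases 2 to 8. Names without an arm were taken as the main arm of the mature entry.
miR-127: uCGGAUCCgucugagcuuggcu
miR-434-3p: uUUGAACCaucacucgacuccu
miR-434-5p: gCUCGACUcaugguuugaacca
miR-136: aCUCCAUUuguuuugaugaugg
miR-370: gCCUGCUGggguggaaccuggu
miR-379: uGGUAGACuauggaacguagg
miR-411: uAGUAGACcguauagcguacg
miR-543: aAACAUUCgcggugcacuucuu
miR-495: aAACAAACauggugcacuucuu
miR-376b: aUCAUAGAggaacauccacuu
miR-376a: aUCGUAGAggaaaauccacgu
miR-382: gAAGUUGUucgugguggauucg
miR-409-3p: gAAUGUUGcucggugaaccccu
miR-410: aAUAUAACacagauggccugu

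No seed was shared by any of the 630 pairs of the 36 sequences compared, which include those of miR-300 and miR-541. The members therefore formed no group by seed. The pairs closest over their whole length were miR-300 with miR-381 (19 of 22 positions identical), miR-376b with miR-376a (18 of 21) and miR-543 with miR-495 (18 of 22). Next came miR-329 with miR-377 and miR-382 with miR-154 (15 of 22 each). miR-379 with miR-411 and miR-323-3p with miR-369-3p followed (14 of 21 each). Assays of such similar microRNAs can share signal.

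A threshold cycle (Ct) is the PCR cycle at which a well's signal crosses a set line, and a lower Ct is a higher level. A member counted as detected at a Ct under 35. Its level is minus its Ct after subtraction of the mean Ct of reference assays, taken as every microRNA assay seen on each of the 7 arrays in a table (137 for GIL with PBMC, 210 for hearts), so that a difference of levels is a log2 fold change. Undetected wells were set to the limit of Ct 35. Levels of different assays were not compared, since assays differ in efficiency. Between 161 and 221 of the 375 microRNA assays were seen per GIL or PBMC array, at a mean reference Ct of 23.2 to 28.0, and 228 to 260 per heart array, at 22.4 to 23.9. The lowest number and the latest Ct were both those of pool 3 of the allogeneic GIL, which put its limit at a level of -7.05 against -10.87 to -9.22 on the other GIL arrays. The leukocyte microRNAs (7 of 7) were detected on all GIL arrays, and so were all 5 mesenchymal ones (miR-199a-3p, miR-199a-5p, miR-214, miR-143 and miR-145), of which PBMC lacked miR-199a-5p and miR-214.

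Of the 14 arrays the PBMC array detected the fewest members. Normal PBMC showed 8 of 36 members (22.2%), against 55.8% of the other 339 microRNA assays on the same array. Syngeneic GIL showed 27, 26 and 27 members and allogeneic GIL 23, 24 and 12. Syngeneic hearts showed 31, 29 and 28, allogeneic hearts 28, 28 and 27, and normal hearts 25. The allogeneic GIL arrays all lay below the syngeneic ones, pool 3 farthest. The means were 19.7 ± 6.66 and 26.7 ± 0.577 members (SD, n = 3 pools each; two-sided exact permutation p = 0.10, the smallest that 3 against 3 arrays allow), and without pool 3 the difference shrank from -7.00 to -3.17. In hearts the corresponding test gave an exact permutation p of 0.30.

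**Figure D1:**
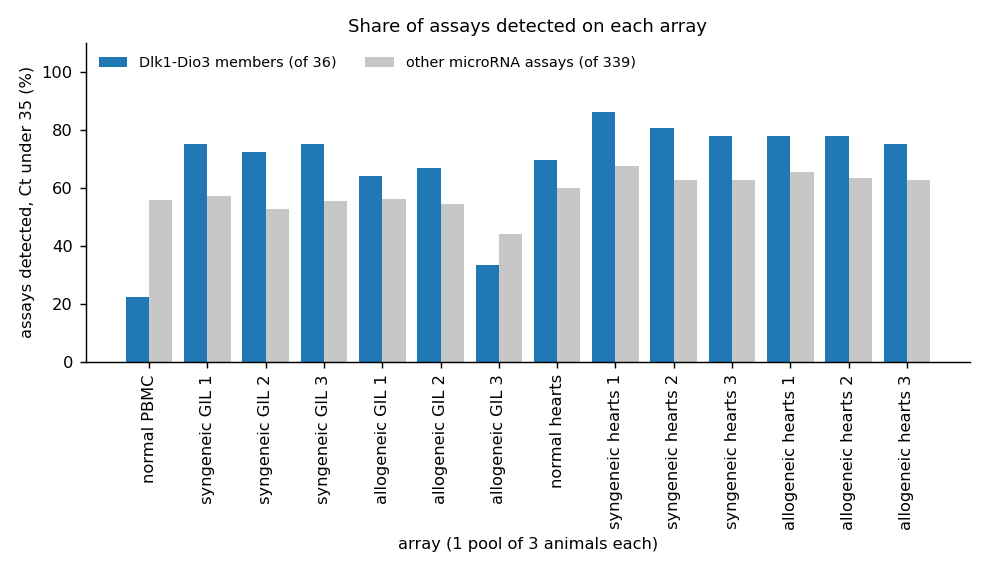
Share of the 36 Dlk1-Dio3 assays (blue) and of the 339 other microRNA assays (grey) detected at a Ct under 35, in percent, for each of the 14 arrays. On the PBMC array the members stand at 22.2% and the other assays at 55.8%, and on allogeneic GIL pool 3 at 33.3% and 44.0%, while on the other 12 arrays the members' bar is the taller one.

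Across all 14 arrays 31 members were detected at least once. miR-154, miR-377, miR-380-3p, miR-487b and miR-668 were detected nowhere. On all 12 transplant arrays 11 were detected: miR-127, miR-337-5p, miR-376a, miR-376b, miR-376c, miR-379, miR-410, miR-411, miR-434-3p, miR-494 and miR-495. Of these, miR-127, miR-337-5p, miR-376b, miR-411 and miR-494 were also seen in both normal samples. Detection of miR-431, miR-433, miR-539 and miR-409-5p was sporadic, on 4, 2, 4 and 1 of 14 arrays, mostly of hearts.

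**Figure D2:**
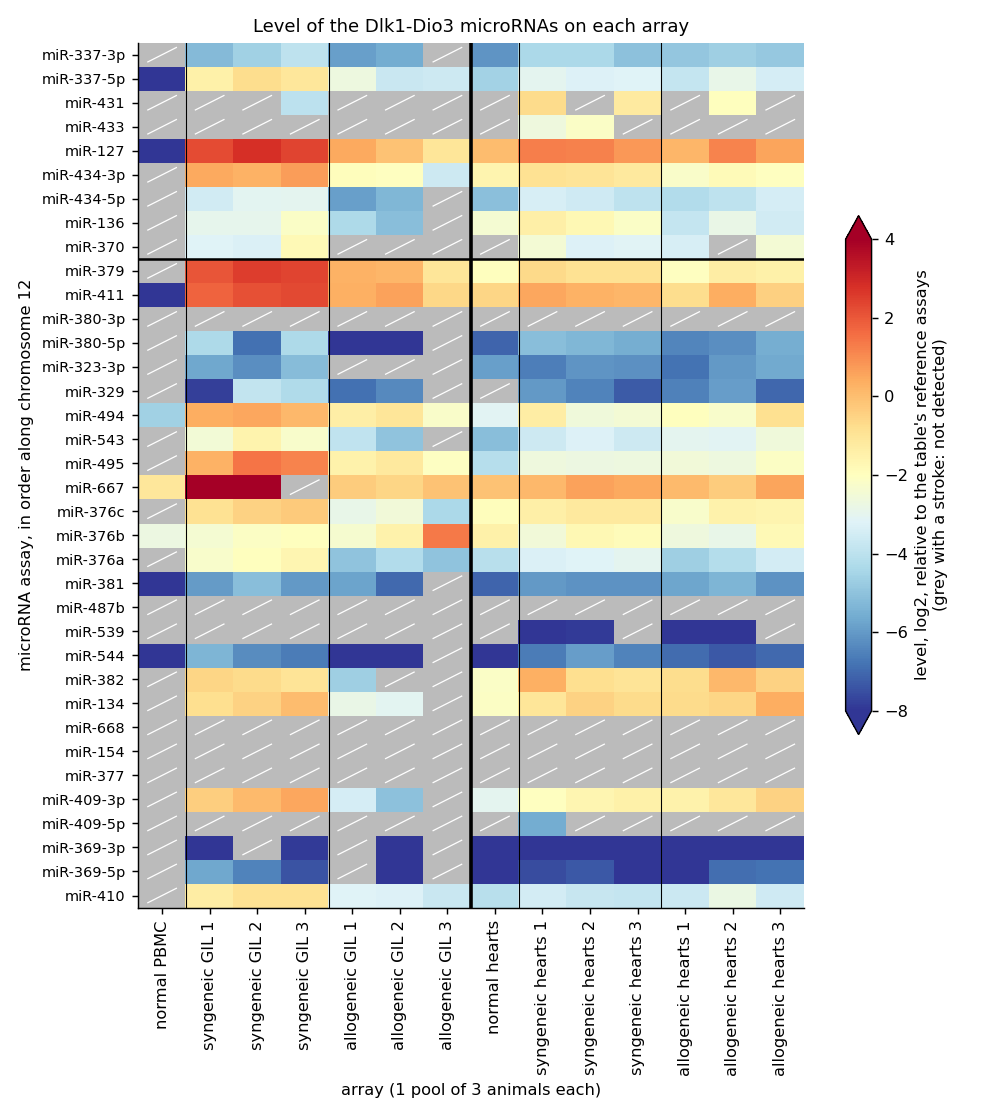
Level (log2, relative to each table's own reference assays) of the 36 members on the 14 arrays, with members in order along chromosome 12 and grey struck cells for wells not detected. The horizontal line divides the Rtl1 antisense group from the miR-379 to miR-410 group and the thick vertical line divides the 2 tables, whose levels have separate references. Allogeneic GIL are cooler than syngeneic GIL in most rows, and pool 3 lacks 24 of 36 members.

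The first comparison asked how the cluster differs between GIL of rejected allogeneic grafts and of syngeneic grafts. Of 26 members tested (detected on every array of at least 1 group), 20 were called lower in allogeneic GIL and 0 higher, at a limma adjusted p under 0.05 over all 201 assays tested; 22 had an unadjusted p under 0.05. Among all tested assays 23.9% were called lower, 12.4% higher and 36.3% in either direction. Among the other 175 tested assays 28 were called lower and 25 higher. The members' median was -2.73 log2 units, against -0.24 over all assays tested and -0.02 over the others. The values of 21 members lay wholly below those of syngeneic GIL, against 33.3% of all assays (24.4% of all assays lay wholly above). Members that pass only through the group where they are high had to differ, so the 11 detected on all 6 GIL arrays are given apart: 10 of them were called lower, and their median was -2.54. In RNA of a mixed cell sample, fewer cells of a type and less RNA per cell cannot be told apart. The labels give no more than pooled animals, so p-values measure the spread between pools.

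In the Rtl1 antisense group 6 of 7 tested members were called lower (median -2.82). miR-127, which has been shown to repress Bcl6 in human cancer cells, stood at 2.22, 2.81 and 2.40 in syngeneic pools and at 0.48, -0.11 and -1.02 in allogeneic pools. The groups did not overlap, and the difference was -2.69 ± 0.43 log2 units (SE; 6.47-fold lower, limma adjusted p = 0.00770). In the authors' deposited table, which scales to snoRNA202 and sets PBMC to 1.00, the relative quantity of miR-127 was 6736, 9780 and 9422 in syngeneic and 3284, 4082 and 1089 in allogeneic pools. Scaled to snoRNA202 the fitted difference of miR-127 was -1.80 ± 0.59 and was not called (limma adjusted p = 0.0588).

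Both arms of miR-434, one of the microRNAs antisense to Rtl1, were lower. The 3p arm was at 0.46, 0.27 and 0.68 in syngeneic and at -1.95, -2.04 and -3.63 in allogeneic pools (-3.01 ± 0.50, adjusted p = 0.00770 with limma). The 5p arm was at -3.51, -3.07 and -3.00 against -5.85, -5.32 and not detected in pool 3 (-2.88 ± 0.48, limma adjusted p = 0.00785). The arms thus differed by like amounts, within their SEs. Of the miR-337 arms only the 5p arm passed the test: it was 4.75-fold lower (-2.25 ± 0.38, limma adjusted p = 0.00785), and the 3p arm, undetected in allogeneic pool 3, stood at -1.57 ± 0.52 without passing (limma adjusted p = 0.0610), although its groups did not overlap.

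miR-136, also antisense to Rtl1, was at -2.97, -2.94 and -2.16 in syngeneic GIL and at -4.34, -5.13 and not detected in allogeneic GIL. The difference was -2.82 ± 0.73 (limma adjusted p = 0.0317). miR-370, known to repress the fatty acid transporter enzyme Cpt1a, was seen on 3 of 3 syngeneic arrays, at -3.18, -3.27 and -1.77, and in none of the allogeneic pools (0 of 3). The fold was at least 94.5 downward (-6.56 ± 1.06, limma adjusted p = 0.00770), a bound whose SE holds no variation of miR-370 within the undetected group.

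In the miR-379 to miR-410 group, a cluster that neurons switch on with activity through Mef2, 14 of 19 tested members were called lower (median -2.71). miR-379, its first member, was at 2.07, 2.54 and 2.38 in syngeneic and at 0.25, 0.18 and -1.05 in allogeneic pools (-2.54 ± 0.41, limma adjusted p = 0.00770). Its neighbour and near relative miR-411 went from 1.77, 2.17 and 2.28 to 0.33, 0.59 and -0.62 (-1.97 ± 0.38, limma adjusted p = 0.0119). Both pairs of groups were fully apart. At the far end, miR-410 was at -1.32, -0.90 and -0.88 against -3.20, -3.22 and -3.70 (-2.34 ± 0.26, limma adjusted p = 0.00548), so that members at both ends of the group stood lower by about the same amount.

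The largest differences among the called members of this group were those of miR-382 and miR-409-3p. miR-382 stood at -0.59, -0.70 and -1.01 in syngeneic GIL, at -4.63 in allogeneic pool 1, and was not detected in pools 2 and 3 (-6.46 ± 1.30, limma adjusted p = 0.0140). miR-409-3p, known to repress fibrinogen production in liver cells, was at -0.39, 0.08 and 0.53 in syngeneic GIL, at -3.42 and -5.04 in allogeneic pools 1 and 2, and was not detected in pool 3 (-5.24 ± 0.92, limma adjusted p = 0.00880). Undetected wells are held at the limit here, so these differences are the smallest that the limits allow. The other arm, miR-409-5p, was not detected in any GIL pool.

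miR-134, a brain microRNA that represses Limk1 in dendritic spines, was at -0.81, -0.47 and 0.04 in syngeneic GIL and at -2.84, -3.04 and not detected in allogeneic GIL (-3.90 ± 1.17, limma adjusted p = 0.0478). miR-323-3p, at -5.66, -6.22 and -5.16 in syngeneic pools, was detected in 0 of 3 allogeneic pools, a fold of at least 12.4 downward (-3.63 ± 1.01, limma adjusted p = 0.0404). miR-380-5p, a repressor of p53 in neuroblastoma, was at -4.31, -6.86 and -4.33 against -9.76, -9.01 and not detected (-3.44 ± 0.99, limma adjusted p = 0.0431), while its 3p arm was seen on no array. All 3 stood lower in allogeneic GIL, with adjusted p-values near the threshold.

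The similar pair miR-495 and miR-543 moved the same way. miR-495 was at 0.26, 1.43 and 1.17 in syngeneic and at -1.52, -1.20 and -2.09 in allogeneic GIL (-2.56 ± 0.41, limma adjusted p = 0.00770). miR-543 was at -2.49, -1.54 and -2.26 against -3.91, -4.97 and not detected (-3.21 ± 0.82, limma adjusted p = 0.0312). miR-494 was at 0.36, 0.53 and 0.14 against -1.38, -1.05 and -2.22 (-1.89 ± 0.36, limma adjusted p = 0.0113). miR-544, at -5.36, -6.30 and -6.63 against -8.31, -8.18 and not detected, was 3.37-fold lower (-1.75 ± 0.50, limma adjusted p = 0.0410).

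The miR-376 family, whose precursors are known substrates of A-to-I editing, did not move as one. miR-376a was at -2.25, -2.00 and -1.66 in syngeneic and at -4.96, -4.21 and -5.00 in allogeneic GIL (-2.76 ± 0.32, limma adjusted p = 0.00548). miR-376c went from -0.89, -0.47 and -0.28 to -2.86, -2.54 and -4.38 (-2.71 ± 0.53, limma adjusted p = 0.0120). miR-376b, in contrast, was at -2.42, -2.10 and -1.96 in syngeneic and at -2.37, -1.49 and 1.35 in allogeneic GIL. It was the only member of the 26 with a higher allogeneic mean (1.32 ± 0.95, limma adjusted p = 0.306), its groups overlapped, and the height of the mean came from pool 3. PBMC carried miR-376b at -2.71, near the syngeneic pools, while miR-376a and miR-376c were not detected there.

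Another 5 tested members did not pass. miR-369-5p stood at -2.78 ± 1.06, miR-329 at -1.43 ± 1.06 and miR-381 at -0.90 ± 0.46, and of the miR-369 arms the 3p arm was detected too rarely in GIL to be tested. miR-337-3p is given above. miR-667 read Ct 12.79 and 12.53 in syngeneic pools 1 and 2, both marked by the instrument software, and was undetermined in pool 3. In allogeneic GIL its levels were -0.32, -0.59 and -0.11, and the wells of pools 2 and 3 were marked as well. The difference was -5.41 ± 6.24 (limma adjusted p = 0.531). Its sign turned, to 9.59, when marked wells were left out, which leaves only allogeneic pool 1 and the undetermined syngeneic well.

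**Figure D3:**
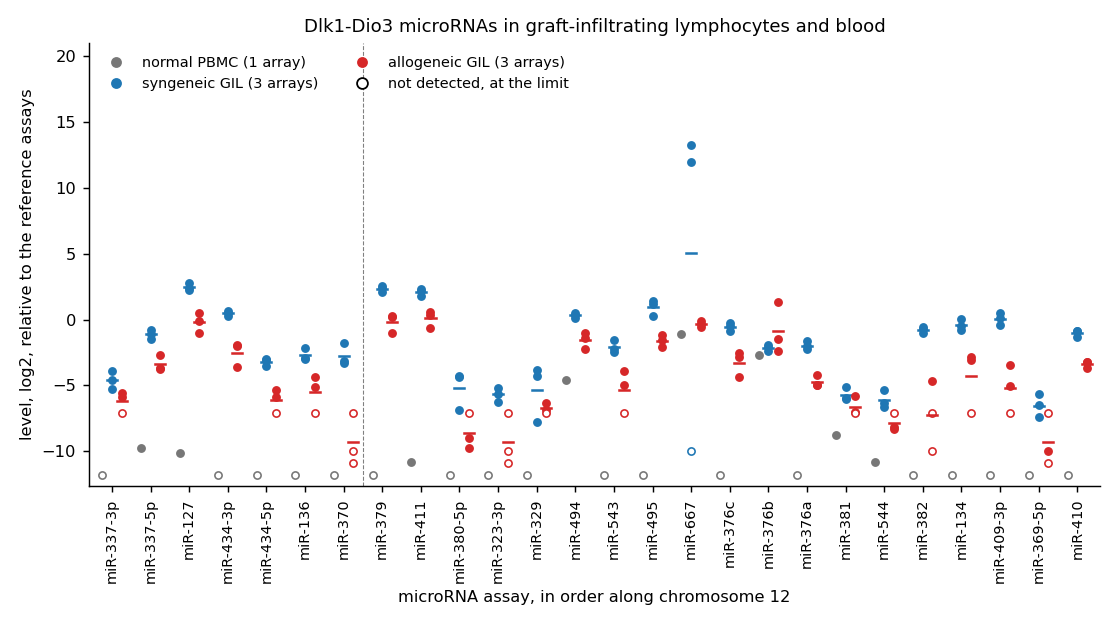
Level (log2) of the 26 tested members in normal PBMC (grey, 1 array), syngeneic GIL (blue, 3 arrays) and allogeneic GIL (red, 3 arrays), in order along chromosome 12. Points are pools, horizontal bars are group means and open points are wells not detected, drawn at their array's limit. In 21 members every red point lies below every blue one, and miR-376b is the only member whose red mean is above the blue one.

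Allogeneic pool 3 had the highest limit of the GIL arrays. Of the members, 14 were undetected in pool 3 but detected on 3 of 3 syngeneic arrays, and for all 14 the syngeneic mean lay above the limit of pool 3 (for 12 of them all 3 syngeneic pools did). Without allogeneic pool 3, 25 of the 26 differences were negative, as with it, and 21 members were called lower, with a median of -2.21. Without syngeneic pool 2 the count fell to 11 and without syngeneic pool 3 to 13, against 14 to 17 without each of the other arrays left out singly. The count also depended on the scaling: it was 18 with the median of the reference assays, 15 with quantile normalization, 10 with MammU6 and 3 with snoRNA202, alone or with snoRNA135. In each of these 5 scalings 25 of the 26 differences were negative and the members' median was between -2.52 and -1.84, while the median of all assays shifted upward by 0.22 to 0.89. Under all 6 scalings the test called miR-370, miR-382 and miR-409-3p, which entered it through the syngeneic group, being detected in 0, 1 and 2 of 3 allogeneic pools. No member detected on all 6 GIL arrays was called under more than 4 of the 6. Over all assays the 48 lower and 25 higher calls became 20 and 34 with MammU6, 10 and 38 with snoRNA202, 10 and 21 with both snoRNAs, 39 and 36 with the median and 31 and 34 with quantile normalization.

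Other measurements moved with the group in GIL. Of the mesenchymal microRNAs 3 of 5 were called lower (miR-214 at -3.45, miR-199a-3p at -1.38, miR-199a-5p at -1.31), and the mean level of the list was 1.92 to 2.70 in syngeneic and 0.86 to 1.65 in allogeneic pools. Of the leukocyte microRNAs 3 of 7 were called higher, with list means of 1.72 to 2.26 and 2.59 to 3.04. Of 3 tested cardiac muscle microRNAs 2 were called higher. The mean of all 6 listed was -3.90 to -3.34 in syngeneic and -2.44 to -0.80 in allogeneic pools. It holds undetected wells at their array's limit: the GIL pools detected 3 to 5 of the 6, allogeneic pool 3 the fewest, and none detected miR-208b. The endothelial list had 1 of 2 lower, the neuronal list 1 of 2 higher, the red cell list 0 of 1, the miR-17 cluster 4 of 6 higher and the X-linked cluster of miR-322 3 of 5 lower. The part of these in the difference of the members was not tested. The files record that all syngeneic GIL were run on 1 day and the allogeneic pools on 2 other days, so run day and group cannot be told apart. Relative to miR-142-3p and miR-142-5p, microRNAs made in blood cells, 23 of 26 members were called lower with a median of -4.03, a scaling chosen after the data were seen. Under it 99 of all tested assays were called lower and 4 higher, and the differences of all assays shifted by a median of -1.30. In the main fit miR-142-3p itself was called higher in allogeneic GIL, at 1.60.

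Against normal PBMC the cluster was high in GIL of both kinds. In syngeneic GIL 24 of 26 tested members were called higher and 0 lower, where of all tested assays 28.8% were called higher, 31.9% lower and 60.7% in either direction. Their median was 9.10 log2 units, against -0.77 for all assays. For 18 of the 26 the PBMC well was not detected; they entered through GIL, where they are high, so their direction was fixed and their folds are bounds. Of the 7 members detected on all arrays of both groups 6 were called higher, with a median of 4.95. miR-379 was at least 18201-fold and miR-495 at least 6997-fold higher. Of members detected in PBMC, miR-127 read -10.11 there and was 6149-fold higher in syngeneic GIL (12.59 ± 0.63, limma adjusted p = 4.76e-05), and miR-494 read -4.60 and was 30.8-fold higher (4.95 ± 0.52, limma adjusted p = 7.29e-04). miR-376b, at 0.55 ± 1.38, and miR-667 did not pass. There is 1 PBMC array, and the test assumes that it varies like the GIL groups.

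In allogeneic GIL 12 of 14 tested members were still called higher than in PBMC (of all tested assays 22.2% were called higher, 35.8% lower and 58.0% in either direction), with a median of 7.77. Of the 6 detected on all arrays of both groups 4 were called (median 4.74). Without allogeneic pool 3 the 12 of 14 became 19 of 22, since more members were then detected in every pool. The members so added were not detected in PBMC and entered through GIL, so their direction was fixed. miR-127 was 950-fold, miR-411 1903-fold and miR-379 at least 3132-fold higher. The allogeneic values thus lay between those of syngeneic GIL and PBMC for these members. The comparisons of GIL with PBMC share the PBMC array, which was run on a day of its own. On it, all 5 mesenchymal, all 3 tested cardiac muscle and both endothelial microRNAs were also lower than in each kind of GIL, all called. In GIL 3 of 7 leukocyte microRNAs were called lower than in PBMC in syngeneic and 4 of 7 in allogeneic pools (1 higher), and 6 of 6 and 5 of 6 of the miR-17 cluster. Their part in the difference was not tested.

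In whole hearts the same comparison of allogeneic with syngeneic grafts gave few calls. Of 27 members tested, 2 were called lower and 0 higher, where 15.1% of all 238 tested assays were called lower, 17.2% higher and 32.4% in either direction. The groups of 6 members did not overlap with allogeneic lower and of 1 with allogeneic higher, against 27.7% and 26.5% of all assays. An unadjusted p under 0.05 was reached by 7 members. The members' median was -0.20, against 0.02 for all assays. miR-136 was at -1.42, -1.74 and -2.18 in syngeneic and at -3.80, -2.81 and -3.51 in allogeneic hearts. These did not overlap, and the difference was -1.59 ± 0.34 (3.02-fold lower, limma adjusted p = 0.0158). miR-434-3p was at -0.88, -0.99 and -1.18 against -2.20, -1.83 and -2.03, also apart (-1.01 ± 0.22, 2.01-fold lower, limma adjusted p = 0.0158). Both lie antisense to Rtl1 and were also called lower in GIL.

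The 2 calls in hearts depended on single arrays. They became 0 without allogeneic pool 1, 0 without syngeneic pool 2 and 1 without syngeneic pool 1, and 4 without each of allogeneic pools 2 and 3 and syngeneic pool 3. With MammU6 neither was called, and of all tested assays 16 were called lower and 18 higher. Under a fixed block for run day 0 members and 2 of 238 assays were called. On the 2 run days that held both groups, allogeneic minus syngeneic was -2.38 and -1.77 for miR-136 and -1.33 and -1.04 for miR-434-3p. With the median of the reference assays 6 members were called lower, but of all 238 tested assays 56 were then called lower and 24 higher.

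All 7 tested members of the Rtl1 antisense group had lower allogeneic means in hearts (median -0.44), whereas in the miR-379 to miR-410 group 8 were lower and 12 higher, none called (median 0.14). miR-376a at -0.95 ± 0.33, miR-379 at -0.80 ± 0.26 and miR-544 at -0.75 ± 0.27 had groups that did not overlap, with limma adjusted p-values of 0.0622, 0.0546 and 0.0668, as had miR-376c at -0.54 ± 0.27. In the other direction the groups of miR-543 did not overlap, at 0.61 ± 0.24 (limma adjusted p = 0.0937). Several members with large differences in GIL stood near 0 in hearts. miR-382 was at 0.30, -0.81 and -0.99 in syngeneic and at -0.76, 0.12 and -0.46 in allogeneic hearts (0.14 ± 0.42). miR-409-3p was at -2.03, -1.63 and -1.46 against -1.53, -1.10 and -0.50 (0.66 ± 0.33). Both pairs of groups overlapped. miR-370, undetected in allogeneic heart pool 2, stood at -2.96 ± 2.36. In these hearts 5 of 6 cardiac muscle and 3 of 4 tested mesenchymal microRNAs were called lower and 3 of 7 leukocyte ones higher; the cardiac list mean was 3.01 to 3.51 in syngeneic and 1.58 to 1.96 in allogeneic hearts. Their part in the values of the members was not tested.

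**Figure D4:**
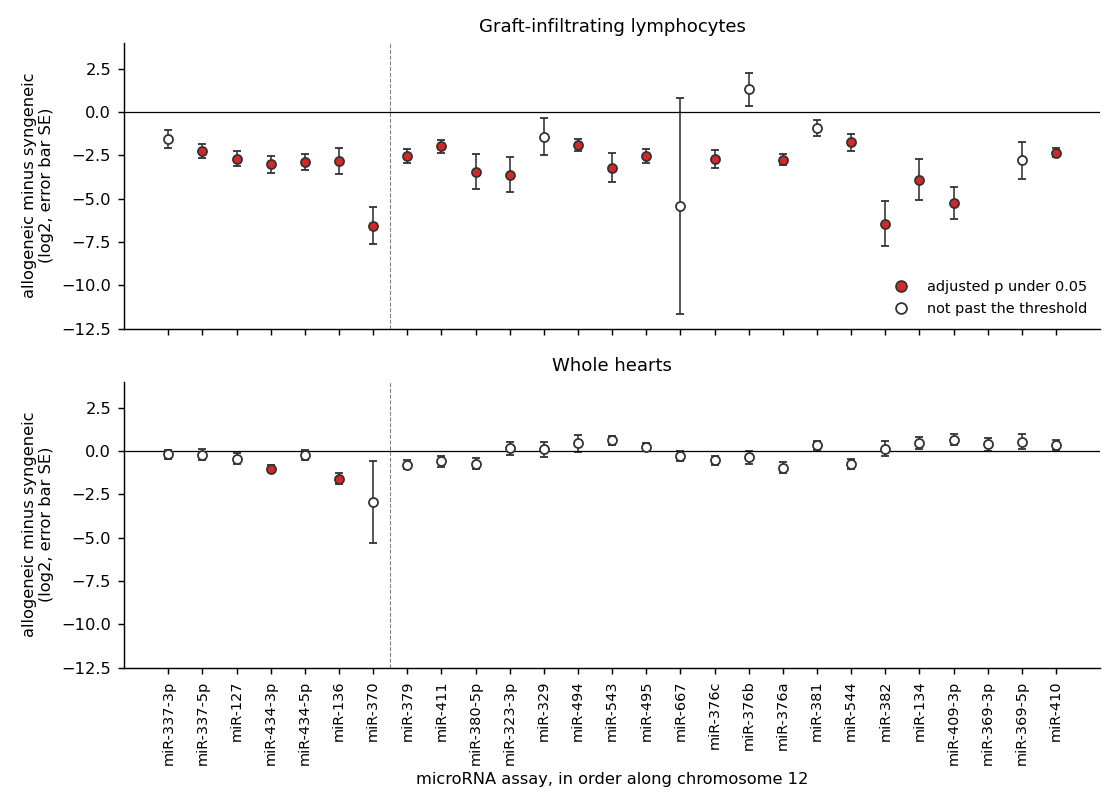
Allogeneic minus syngeneic level (log2, error bars SE from limma) of each tested member in GIL (top, 26 members) and whole hearts (bottom, 27 members), in order along chromosome 12; the dashed line divides the Rtl1 antisense group on the left from the miR-379 to miR-410 group. Filled points passed an adjusted p of 0.05, and they are 20 in GIL and 2 in hearts, all below 0.

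The difference between the GIL and heart effects was tested directly as an interaction over the 12 transplant arrays. Of 26 members, 15 were called, all with the lower effect in GIL, where 20.7% of 198 assays were called in that direction, 8.08% in the other and 28.8% in either. The members' median was -2.29, against -0.44 for all assays. miR-409-3p (-5.90 ± 1.03, limma adjusted p = 0.00382), miR-410 (-2.69 ± 0.39, limma adjusted p = 0.00204) and miR-495 (-2.79 ± 0.47, limma adjusted p = 0.00352) had the smallest adjusted p-values. miR-136, called lower in both tissues, did not pass (-1.22 ± 0.85, limma adjusted p = 0.299). Among the marker lists 3 of 3 cardiac muscle microRNAs were called with the higher effect in GIL (median 3.33), as was 1 of 2 endothelial ones, and the red cell microRNA miR-451 was called lower at -3.32; their part was not tested. With each array left out in turn the count was 10 to 16, but it was 2 with MammU6 or snoRNA202 and 3 with both snoRNAs. Over all assays the calls with the lower effect in GIL fell likewise, from 41 to 6, 7 and 8. Those with the higher effect went from 16 to 9 with MammU6, 20 with snoRNA202 and 19 with both snoRNAs. The test called both miR-382 and miR-409-3p in each of the 6 scalings, and both had entered through syngeneic GIL. Rerun with only the assays detected on all arrays, the test called 10 of 11 members (median -2.05), and 9 of these were also called among all 198 assays. Of these 11, miR-410 was called among all tested assays under 4 of the 6 scalings. GIL were taken on day 5 and hearts on day 7, so the tissue and the day cannot be told apart.

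Set on 1 common reference of 133 assays detected on all 14 arrays, levels of GIL and hearts can be placed side by side, as a description with no test. All 25 members detected on every syngeneic array of both tables had a higher mean in syngeneic GIL than in syngeneic hearts, by a median of 2.69 log2 units. These differences were computed for members only, so whether other assays differ likewise is not known. Of these 25, in allogeneic grafts 15 had the higher mean in GIL and 10 in hearts, miR-382 (-5.20), miR-409-3p (-2.47) and miR-134 (-2.34) farthest, with undetected GIL wells at their limit. The 12 members detected on every allogeneic array, which leave out those 10, were higher in allogeneic GIL by a median of 1.65. On that reference miR-379 was at 2.03, 2.51 and 2.33 in syngeneic GIL and at -2.19, -2.44 and -2.45 in syngeneic hearts. In allogeneic grafts it was at 0.23, 0.15 and -1.07 in GIL and at -3.79, -3.04 and -3.05 in hearts. miR-379 was thus highest in syngeneic GIL, lower in allogeneic GIL, lower again in both kinds of heart, and not detected in PBMC.

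Transplanted hearts were also compared with the normal hearts, which are of the BALB/c strain and fill 1 array. In syngeneic hearts 6 of 27 members were called higher and 0 lower (of all assays 11.6% were called higher, 7.44% lower and 19.0% in either direction), with a median of 1.29 against -0.05. They were miR-329, which is at least 23.4-fold higher since the normal array did not detect it, miR-544 (2.79 ± 0.38), miR-380-5p (1.78 ± 0.42), miR-543 (1.65 ± 0.34), miR-337-3p (1.50 ± 0.37) and miR-495 (1.45 ± 0.33). The count was 3 without syngeneic pool 1 and 2 without syngeneic pool 2. In allogeneic hearts 13 of 26 were called higher and 0 lower (of all assays 26.1% were called higher, 25.7% lower and 51.9% in either direction), with a median of 1.21 against -0.17. The count was 8 without allogeneic pool 3 and 8 without syngeneic pool 2. Among them miR-543 was at -3.02, -3.08 and -2.57 against -5.14 in the normal hearts (2.26 ± 0.35, limma adjusted p = 0.00260), and miR-409-3p was 3.90-fold higher. Under quantile normalization the allogeneic calls were 3 higher and 2 lower, and the median was -0.07. Of all assays 46 were then called higher and 75 lower. In syngeneic hearts 2 of 6 cardiac muscle and 1 of 2 endothelial microRNAs were called lower than in normal hearts and 2 of 7 leukocyte ones higher. In allogeneic hearts 6 of 6 cardiac muscle (median -2.93), 2 of 2 endothelial and 3 of 4 mesenchymal microRNAs were called lower and 5 of 7 leukocyte ones higher. Their part in the values of the members was not tested. Both comparisons share the normal array, which was run on a day of its own, so run day and transplantation cannot be told apart. In the syngeneic comparison the strain of the heart differs too.

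The card also held 15 assays of the region that are not members, rat-named assays among them. Of these 5 were detected on at least 1 array. The rat-named miR-381 assay read -3.05, -2.05 and -2.07 in syngeneic GIL, -2.93 and -1.91 in allogeneic GIL with pool 3 undetected, and -3.19 in PBMC. The others (miR-493, miR-496, miR-654-3p and the rat-named miR-758) appeared on 1 or 2 arrays each.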

How the data were processed

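MicroRNA was measured with TaqMan rodent array cards in 14 samples. Per the labels, RNA was isolated with mirVana, reverse transcribed and preamplified with Megaplex primers, and run on a 7900HT; the authors exported tables from its SDS software. Delta Ct values as deposited are log2 values; subtracting the snoRNA202 Ct from each Ct gave them back (within 5e-04), with undetermined wells at 40. In the deposited tables the relative quantity (RQ) is a ratio with the normal array at 1.00. Baseline and threshold settings are not given in the sources used here.

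Levels were recomputed from Ct as described and fitted with limma 3.58.1 (R 4.3.3), by lmFit with eBayes over the 3 groups of a table, with Benjamini-Hochberg adjustment over the assays tested. The fits were tested on simulated data with the same spread for every assay and no wells set to the limit. That setting does not cover members with undetected wells. The let-7b well of allogeneic heart pool 2, whose sample name differed, was left out. Arrays give no counts, so their number limits the precision. Members, lists and named microRNAs were chosen with earlier results of these data known: every member with a call, with detection on all GIL or transplant arrays, with detection in only 1 group, or with an opposing direction was named. Alternatives were other scalings, Ct limits, filters, blocks and leaving out each array.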

Additional observations from a re-analysis of the deposited data

Results flagged for a closer look

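For 15 members the allogeneic effect differed between GIL and hearts by the interaction test over the 12 transplant arrays (limma, adjusted p under 0.05). The log2 differences, GIL minus hearts, were -6.59 for miR-382, -5.90 for miR-409-3p, -4.34 for miR-134, -3.82 for miR-543, -3.77 for miR-323-3p, -2.79 for miR-495, -2.69 for miR-410 and -2.65 for miR-434-5p. They were -2.33 for miR-494, -2.25 for miR-127, -2.17 for miR-376c, -2.05 for miR-337-5p, -2.01 for miR-434-3p, -1.81 for miR-376a and -1.74 for miR-379. miR-323-3p was detected on 0 of 3 allogeneic GIL arrays, so its value is a bound. The values of miR-382 (detected on 1 of 3) and of miR-409-3p, miR-134, miR-543 and miR-434-5p (2 of 3 each) also hold wells set to the limit. With groups of 3 arrays no search for single outlying arrays was made.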

How the results depend on the processing

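Single members were rerun for GIL, for the 2 calls in hearts and for the 15 calls of the interaction; among these miR-667 in GIL changed sign, to 9.59 with marked wells left out. In GIL the count of 20 became 10 with MammU6, 3 with snoRNA202 alone or with snoRNA135, and 10 among assays detected on all arrays of both groups, of which fewer were tested; leaving out 1 array gave 11 to 21. In hearts the 2 became 0 with MammU6, 1 with snoRNA202, 6 with the median reference, 4 with undetected wells left out or among assays detected on all arrays, and 0 under a fixed block for run day; leaving out 1 array gave 0 to 4. Over all assays in hearts the lower calls went from 36 to 56 with the median reference, 16 with MammU6 and 23 with snoRNA202. With the replicate block 17 members were called in GIL and 1 in hearts. Same-numbered pools did not deviate together (correlations 0.19, 0.23 and -0.16 in GIL, -0.04, -0.29 and 0.12 in hearts), so the numbers were not taken as pairs. A fixed run day block could not be fitted in GIL.

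The interaction count of 15 became 2 with MammU6, 3 with both snoRNAs and 2 with snoRNA202, and leaving out 1 array gave 10 to 16. Over all assays the 57 calls became 15 with MammU6 and 27 with both snoRNAs or snoRNA202 alone. For syngeneic GIL against PBMC the 24 became 7 with undetected wells left out and 6 among assays detected on all arrays (23 to 25 leaving out 1 array). For allogeneic GIL against PBMC the 12 became 6 and 4 with these, and 19 with every assay detected on at least 1 array (11 to 19). For syngeneic hearts against normal hearts the 6 became 2 with MammU6, 2 with both snoRNAs and 1 with quantile normalization (2 to 8). Over all assays the 46 calls became 24, 36 and 38 with these. For allogeneic hearts the 13 became 4 with MammU6, 5 with both snoRNAs, 7 with the median reference, 5 with quantile normalization (2 of them lower), 8 with every assay detected on at least 1 array and 7 with eBayes with trend and robust (8 to 11). Over all assays the 125 calls became 58 with MammU6 and 104 with both snoRNAs. They became 119 with the median reference and 121 with quantile normalization. The cause of these shifts was not tested. For the number of members detected per GIL array, leaving out 1 array moved the difference between -9.17 and -3.17. The normal groups hold 1 array each and could not be left out.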
